A study of Arabidopsis thaliana with 2 samples.

Results

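The circadian clock of Arabidopsis thaliana was examined through 10 genes given by locus: CCA1, LHY, PRR9, PRR7, PRR5, TOC1, GI, ELF3, ELF4 and LUX. They were taken in the order of their known daily peak, with CCA1 and LHY at dawn, PRR9, PRR7 and PRR5 through the day, and TOC1, GI, ELF3, ELF4 and LUX in the evening. Of 21808 loci with reads in at least 1 library, 7 were members of this list, and CCA1, LHY and PRR9 were listed in neither library. Polyadenylated RNA had been sequenced from seedlings aged 10 days, in 1 wild-type library (WT) and 1 library of the double mutant crwn1 crwn2, which carries mutations in a pair of genes for coiled-coil proteins of the nuclear lamina. The sources used here do not name the mutant alleles, the accession, the light regime or the hour of harvest. Clock transcripts cycle over the day, so harvest hour and genotype cannot be told apart for them.

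The plant clock is a set of transcription loops in which each wave of factors represses genes of other waves. CCA1 and LHY are MYB-related repressors of evening genes. The pseudo-response regulators PRR9, PRR7, PRR5 and TOC1 follow through the day and repress CCA1 and LHY. GI is a large protein that stabilises the F-box protein ZTL and promotes flowering, and ELF3, ELF4 and LUX form the evening complex, a night-time repressor that binds DNA through LUX. Because the loops interlock, a seedling sampled at a single hour has some members near their peak and others near their trough.

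The loci measured, as defined below, held 2076360 reads in WT and 2182388 in crwn1 crwn2, nearly all reads of each library, and the median listed locus had 24 and 26 reads. CRWN1 had 1021 and 57 reads and CRWN2 had 148 and 9, so both mutated genes were lower in the library with the mutant label. With 1 library per genotype there was no test, and every interval below covers counting error alone. Of 14393 loci measured, meaning at least 1 RPKM (reads scaled to transcript length in kilobases and to library total) and 10 reads in 1 library or more, 4.53% were called lower and 6.34% higher in the mutant, at 2-fold or more with a counting interval excluding equality. TMM scaling, which sets most genes to no difference, made these shares 5.74% lower and 4.8% higher. Marker lists moved between the same libraries. Of 12 measured touch- and wound-responsive genes 10 were called lower and none higher. Their summed level was 5849 RPKM in WT and 1536 in the mutant. JAZ8 had the lowest log2 ratio of the list at -3.03, on 24 reads in WT and 2 in the mutant. Its ratio of reads was 0.0792 (0.00907 to 0.319). JAZ8 met the minimum of reads and RPKM in WT alone, which favours a ratio below 0. Of the 11 touch- and wound-responsive genes that met it in both libraries, 9 were called lower, against 3.68% of all such loci. Of 11 measured root markers 6 were called higher and none lower (summed level 2338 and 2723 RPKM, or 65.4 and 163 RPKM without PYK10, which holds most of the sum). Those called were EXPA18, EXPA7, PRP3, LRX1, COBL9 and CASP1, EXPA18 and EXPA7 having 0 reads in WT and 24 and 14 in the mutant. Of the 11, 6 met the minimum of reads and RPKM in the mutant alone, which favours a ratio above 0. Only 4 met it in both libraries, and of these CASP1 alone was called, with 18 and 61 reads. PYK10, SCR, SHR, PLT1 and PLT2 were not called, with log2 ratios from -0.15 to 0.35, so the list did not move as a whole. NRT2.1 and SMB were listed in neither library. None of 9 measured green-tissue markers was called (summed level 9226 and 10334 RPKM), and 1 of the 9 was below 0, where 40.6% of all measured loci were. RBCS1B, named outside the rule for named genes, lay just under the threshold at a log2 ratio of 0.99. It had 1356 and 2832 reads, a ratio of 1.98 (1.86 to 2.12). The part of these lists in the clock-gene values was not tested, and in seedling RNA fewer cells of a type and less RNA per cell cannot be told apart.

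Clock genes are known to be driven by short motifs in the DNA upstream of them, and the stretches that hold these motifs are shown before the values. Upstream sequence was read from the RefSeq TAIR10.1 genome, counted from the outermost start of each locus in RefSeq or in the deposited models. The evening element AAAATATCT, through which CCA1 and LHY act, was matched on both strands within 1000 bases of PRR5, TOC1, GI, ELF4 and LUX and of no other member, against 7.25% of 27444 protein-coding loci, and within 300 bases of TOC1 and LUX, against 2.79%. GI had 3 matches and PRR5 had 2, and the stretch around the farther PRR5 match overlaps the annotated locus AT5G03755. The stretches below run in the direction of transcription with the element in capitals, which reads AGATATTTT on the opposite strand.
PRR5 (chr5:8359224-8359292, minus strand, 419 to 351 bases upstream): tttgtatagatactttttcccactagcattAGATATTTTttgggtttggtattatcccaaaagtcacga
TOC1 (chr5:24674782-24674850, plus strand, 181 to 113 bases upstream): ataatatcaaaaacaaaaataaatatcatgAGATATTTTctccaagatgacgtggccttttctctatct
GI (chr1:8060912-8061012, plus strand, 839 to 739 bases upstream): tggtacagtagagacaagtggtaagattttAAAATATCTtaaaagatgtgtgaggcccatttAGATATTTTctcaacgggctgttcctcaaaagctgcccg
ELF4 (chr2:16735451-16735519, minus strand, 566 to 498 bases upstream): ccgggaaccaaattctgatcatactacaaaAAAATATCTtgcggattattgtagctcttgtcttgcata
LUX (chr3:17182959-17183027, plus strand, 83 to 15 bases upstream): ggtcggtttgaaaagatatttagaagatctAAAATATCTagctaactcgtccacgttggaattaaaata

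The G-box CACGTG, a site bound by light-signalling factors, lay within 300 bases of CCA1, LHY, PRR9, PRR7 and LUX, against 7.08% of loci, and 1000 bases added no member (14.8% of loci). The LUX-binding site, searched as GATTCG or GATACG, lay within 300 bases of PRR9, ELF3 and ELF4, against 14.3% of loci, and within 1000 bases of all members but CCA1 and PRR5, against 39.8%. The stretches around the match of LHY and both matches of PRR7 overlap the neighbouring annotated loci AT1G01070 and AT5G02820. The CCA1-binding site AAAAATCT was found within 1000 bases of LHY and PRR9, against 21.1% of loci, and within 300 bases of no member, against 7.93%. The next stretches show the G-box of both dawn genes and of PRR7, and the LUX-binding site of ELF3, in capitals, with the latter reading CGTATC on the opposite strand.
CCA1 (chr2:19245368-19245433, plus strand, 223 to 158 bases upstream): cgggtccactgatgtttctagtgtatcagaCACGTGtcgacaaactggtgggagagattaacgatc
LHY (chr1:37916-37981, minus strand, 110 to 45 bases upstream): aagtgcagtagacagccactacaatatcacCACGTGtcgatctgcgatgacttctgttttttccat
PRR7 (chr5:642196-642261, minus strand, 231 to 166 bases upstream): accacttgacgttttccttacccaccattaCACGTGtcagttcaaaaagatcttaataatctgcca
ELF3 (chr2:11058831-11058896, plus strand, 113 to 48 bases upstream): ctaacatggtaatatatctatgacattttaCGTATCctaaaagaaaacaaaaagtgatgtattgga

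A match describes these letters and is not evidence of binding. Among measured members, those with an evening element (PRR5, TOC1, GI and ELF4) had log2 ratios from -1.01 to -0.27. Those without (PRR7 and ELF3) had -1.60 and -0.12, on either side of that span. With so few genes, the kinds were not compared.

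**Figure D1:**
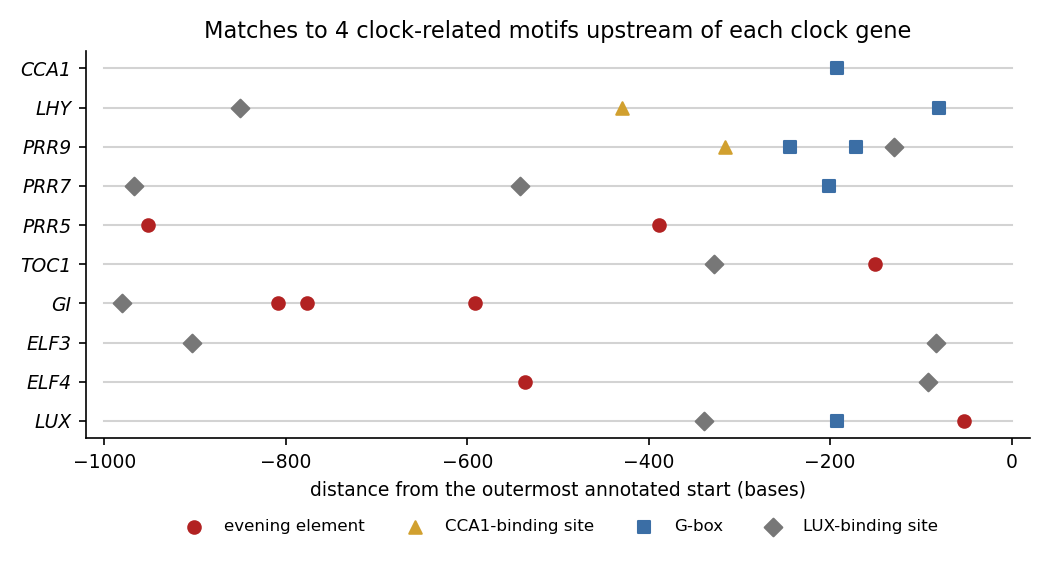
Positions of 4 motifs in the 1000 bases upstream of each clock gene, in order of daily peak from top to bottom; the x axis is the distance in bases from the outermost annotated start and each symbol is 1 match on either strand. Evening elements (circles) mark PRR5, TOC1, GI, ELF4 and LUX, and G-boxes (squares) mark CCA1, LHY, PRR9, PRR7 and LUX.

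The dawn genes could not be read from these files. CCA1 and LHY, and the morning gene PRR9, count as 0 reads in both libraries under the rule used to sum loci. That value is not read here as absence of expression. They have 3, 8 and 5 RefSeq transcripts, and listed models of loci with several transcripts were thinly covered in these files. In WT the median share of a model covered by reads was 67.0% for loci with 1 RefSeq transcript, 15.1% with 2 and 7.28% with 3 or more, and in the mutant it was 70.6%, 15.4% and 7.35%. Of all nuclear protein-coding loci, expressed or not, 31.4% of those with 1 transcript were listed in neither library. The share was 12.8% with 2 transcripts and 13.8% with 3 or more. Whether transcript number bears on the absence of the 3 clock genes was not tested. Among 10 common reference genes, a list chosen after the values were seen, UBQ10 and PP2AA3 were listed in neither library. They have 8 and 4 RefSeq transcripts, and why they were not listed was not tested. GAPC1 of that list was called higher (559 reads in WT and 1457 in the mutant), where 6.34% of all measured loci were, and the others listed were not called. Because no dawn gene was listed, dawn reads over evening reads, the ratio planned as a within-library measure of clock phase, had no value in either library.

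LUX, the DNA-binding member of the evening complex, had 8 reads in WT and 2 in the mutant, under the minimum of 10. Its first model held 3 and 1 reads and its second 5 and 1, and reads covered at most 5.53% of a model. The ratio of reads was 0.238 (exact 95% interval 0.0246 to 1.19), so no difference was detectable with these reads. LUX has 3 RefSeq transcripts, and whether this bears on its low count was not tested. In RefSeq, LUX also overlaps AT3G46650 on the opposite strand by 1507 bases. BOA, a close paralog of LUX named outside the rule for named genes, had 142 and 82 reads, or 46.7 and 25.6 RPKM. Its log2 ratio was -0.84, not called, and its ratio of reads was 0.549 (0.413 to 0.725), below equality.

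Levels of the 6 measured members spanned more than an order of magnitude in WT, and evening genes were both the highest and the lowest. TOC1 was highest at 178 RPKM (95% Poisson interval 167 to 189). ELF3 at 84.4 (77.0 to 92.4) and ELF4 at 76.4 RPKM (62.1 to 93.0) came next and did not differ beyond their intervals. PRR7 at 17.5 (14.3 to 21.3) and PRR5 at 16.9 RPKM (13.4 to 21.1) were likewise indistinguishable. GI was lowest at 6.12 RPKM (4.58 to 8.0). In crwn1 crwn2 the order began in the same way, with TOC1 at 98.2 RPKM (90.4 to 107), ELF3 at 77.3 (70.4 to 84.8) and ELF4 at 63.0 (50.4 to 77.9). ELF3 and ELF4 again overlapped. The lower end differed, since PRR5 at 12.9 RPKM (9.91 to 16.4) stood above PRR7 at 5.13 (3.51 to 7.24), and the interval of PRR7 overlapped that of GI at 2.52 (1.60 to 3.79).

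**Figure D2:**
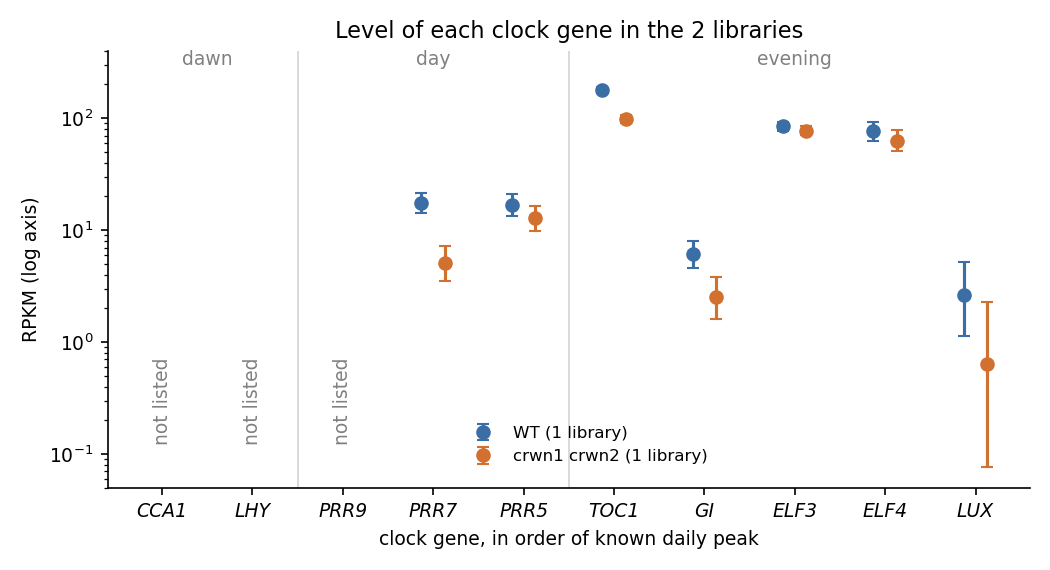
Level of each clock gene in RPKM (log axis) in WT (blue) and crwn1 crwn2 (orange), 1 library each, in order of known daily peak; bars are 95% Poisson intervals of the reads. TOC1 was highest in both libraries, at 178 and 98.2 RPKM, and CCA1, LHY and PRR9 were not listed.

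PRR7 and GI were called lower in the mutant library and none of the 6 measured members was called higher, where 4.53% of all measured loci were called lower. All 6 met the minimum in both libraries. PRR5, ELF3 and ELF4 had counting intervals that include equality. A log2 ratio below 0 was found in 6 of 6 measured members against 40.6% of all measured loci. The members' median log2 ratio of RPKM + 1 was -0.61, against 0.12 for all measured loci, a difference of -0.73. A counting interval wholly below equality was found for PRR7, GI and TOC1, against 12.5% of all measured loci, while 22.4% of all had one wholly above it and no member did.

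Among measured members, PRR7 had the lowest ratio. This midday repressor of CCA1 and LHY (AT5G02810, chromosome 5, 637897 to 641977 on TAIR10) had 104 reads in WT and 32 in crwn1 crwn2, or 17.5 and 5.13 RPKM. Reads covered 68.4% of its model in WT and 41.5% in the mutant. It has 1 listed model and 2 RefSeq transcripts. Its log2 ratio was -1.60, and per library total it had 3.42-fold fewer reads in the mutant (exact 95% interval 2.28 to 5.25). PRR5, the afternoon regulator of the same family (AT5G24470, chromosome 5, 8355951 to 8358873), had 80 and 64 reads, a log2 ratio of -0.37 and a ratio of reads of 0.760 (0.539 to 1.07). PRR5 was thus not called, and its interval included equality.

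TOC1, the evening member of the pseudo-response regulators (AT5G61380, chromosome 5, 24675064 to 24678550), was the most deeply counted of the 10 genes. It had 1007 reads in WT and 586 in crwn1 crwn2, 97.8% and 97.1% of the model being covered. Its log2 ratio was -0.85, and it had 1.81-fold fewer reads in the mutant (1.63 to 2.01). TOC1 lay just outside the 2-fold threshold, and its narrow interval excluded equality. At a threshold of 1.5-fold it would be called, where 8.3% of all measured loci were called lower and 13.8% higher. GI, just inside the threshold at a log2 ratio of -1.01, rested on far fewer reads. It had 53 in WT and 23 in the mutant (AT1G22770, chromosome 1, 8061844 to 8067716), 2.42-fold fewer (1.46 to 4.14), and 39.7% and 22.9% of its model was covered.

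ELF3 and ELF4 showed the smallest differences. ELF3, the scaffold of the evening complex (AT2G25930, chromosome 2, 11059035 to 11063324), had 470 and 453 reads, a log2 ratio of -0.12 and a ratio of reads of 0.916 (0.803 to 1.04). The interval excludes a 2-fold difference in counting terms. RefSeq places an antisense RNA, AT2G08135, across 183 bases of ELF3, and AT2G25940 on the opposite strand across 24 bases. No strand is stated for the reads, so reads there could come from either locus. ELF4, a small protein of the same complex (AT2G40080, chromosome 2, 16734294 to 16734912), had 99 and 86 reads, a log2 ratio of -0.27 and a ratio of reads of 0.826 (0.611 to 1.11). Neither was called.

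**Figure D3:**
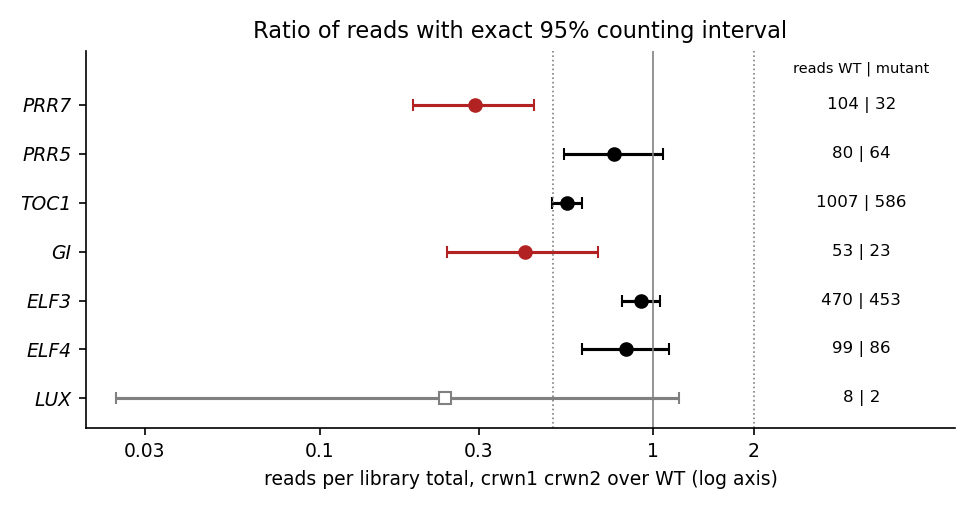
Ratio of reads per library total, crwn1 crwn2 over WT (x axis, log scale), for the 7 clock genes with reads; bars are exact 95% counting intervals, dotted lines mark 2-fold, red marks called genes, the open square is LUX, under 10 reads, and the numbers on the right are reads. PRR7 and GI lie below 0.5, TOC1 at 0.553 has the narrowest interval, and ELF3 at 0.916 lies closest to equality.

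The measured members did not share a common factor within counting error. A ratio of reads between genes within a library does not depend on how libraries are scaled, and gene length cancels when that ratio is set against the same ratio in the other library. Of 15 such pairs of measured members, 8 had a ratio that differed between the libraries beyond the exact 95% counting interval. The interval was not adjusted for the number of pairs, which share 6 genes. The same share was not computed for pairs of other loci, so the count is not read as particular to clock genes. Of all measured loci, 12.5% had an interval wholly below equality between libraries and 22.4% had one wholly above it. PRR7 had 1.30 reads per PRR5 read in WT and 0.500 in the mutant, 2.59-fold lower (1.51 to 4.51). TOC1 had 2.14 reads per ELF3 read in WT and 1.29 in the mutant, 1.66-fold lower (1.40 to 1.96). GI had 0.113 reads per ELF3 read in WT and 0.0508 in the mutant, 2.22-fold lower (1.31 to 3.86). PRR7, TOC1 and GI were each lower relative to both ELF3 and ELF4. For ELF3 against ELF4 the ratio in the mutant was 1.11 times that in WT (0.799 to 1.54), for PRR7 against GI 0.710 times (0.362 to 1.41), and for TOC1 against GI 1.34 times (0.798 to 2.32), so these pairs were not separated at this depth.

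**Figure D4:**
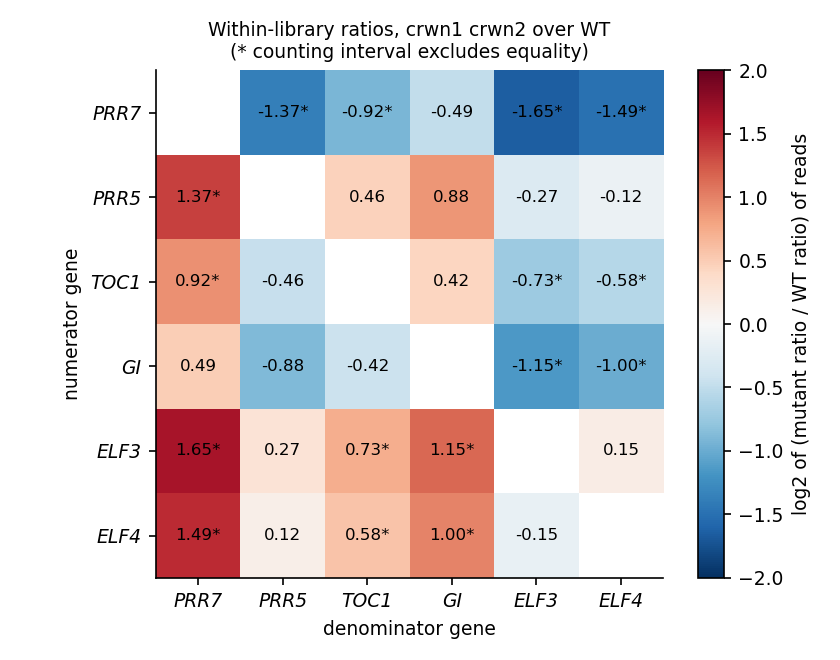
Within-library ratio of reads of the row gene to the column gene in crwn1 crwn2, divided by the same ratio in WT, as log2 (colour and printed value); a star marks an exact 95% counting interval that excludes equality. PRR7, TOC1 and GI are low against ELF3 and ELF4, and ELF3 against ELF4 is near 0.

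Among 13 paralogs and partners of the evening members, CHE and AT4G33980 were called lower and none was called higher, where 4.53% of all measured loci were called lower. Over all 13, which were all listed, 9 had a log2 ratio below 0 and 4 above it, where 43.5% of all listed loci were below 0. Of the 8 measured, 3 met the minimum in WT alone, which favours a ratio below 0, and the median of the 8 was -0.85. The 5 that met it in both libraries were all below 0, where 41.5% of all such loci were. JMJ30, a histone demethylase gene named outside the rule, had 2 and 9 reads and was not measured. CHE, a TCP-family factor that binds the CCA1 promoter, had 166 reads in WT and 57 in the mutant, 3.06-fold fewer (2.26 to 4.22), with levels of 74.1 and 24.2 RPKM. AT4G33980, described in the deposited tables as most similar to the cold-regulated gene COR27, had 59 and 26 reads and a log2 ratio of -1.19. It has 2 transcript models, and 19.9% and 20.1% of the one with more reads was covered. COR27 had 14 and 7 reads (log2 ratio -0.87) and ELF4-L3, a relative of ELF4, had 12 and 6 (-0.91), both meeting the minimum in WT alone and neither called. FKF1, a blue-light receptor partner of GI named outside the rule, had 106 and 90 reads and a log2 ratio of -0.30, not called.

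Relatives of CCA1 and LHY were mostly out of reach. Of 12 REVEILLE and LNK genes, which encode MYB-related factors and coactivators that work with some of them, only RVE1 and RVE2 were measured and neither was called. RVE1 had 24 and 17 reads (log2 ratio -0.48), and RVE2 had 80 and 102 (0.27). LNK1 and LNK4 were listed in neither library. Among 9 measured genes of other clock-associated regulators 1 was called lower, against 4.53% of all measured loci, none was called higher, 5 were below 0, against 40.6%, and the median was -0.16. SKIP, a splicing factor, was the called gene with 15 and 5 reads (log2 ratio -1.03), over 10.5% and 7.61% of its model. It met the minimum in WT alone, and none of the 7 genes that met it in both libraries was called. CKB4, a regulatory subunit of casein kinase CK2, had 10 and 18 reads (0.63), and PRMT5, an arginine methyltransferase, 6 and 11 (0.51). LWD1, a WD-repeat protein, had 127 and 98 (-0.44), and none of these 3 was called. The ratio of reads of LWD1 was 0.733 (0.558 to 0.962), below equality.

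Few rhythmic outputs were measured and none was called, where 4.53% of all measured loci were called lower and 6.34% higher. With so few genes, none called is not set apart from these shares. Of 10 outputs high around dawn or morning 5 were measured, with a median log2 ratio of -0.35. Of these 5, CDF1 and AT1G69570 met the minimum in WT alone, which favours a ratio below 0. Those that met it in both libraries were RCA, CAT2 and COL2, the last named outside the rule with 24 and 25 reads (-0.01). RCA, which encodes rubisco activase, had 249 and 313 reads (0.25), over only 5.07% and 5.13% of its model with the most reads. Its ratio of reads was 1.19 (1.01 to 1.42), an interval above equality that would include it after TMM scaling. CAT2, a catalase gene, had 18 and 14 reads (-0.35), over 4.2% and 3.78% of its model. CDF1, a repressor of CO, had 11 and 8 (-0.41). The Dof-type zinc finger gene AT1G69570 had 10 and 4 reads (-0.88). Of 5 outputs high around dusk or evening only GRP7, an RNA-binding protein gene, was measured. It had 315 and 231 reads, a log2 ratio of -0.52 and a ratio of reads of 0.697 (0.586 to 0.829), below equality and not called. Reads covered 16.27% and 16.15% of its model with the most reads. The difference between the morning and the evening outputs was not tested. Over the 5 lists of related genes, 25 of 53 genes were measured, of which 3 were called lower, against 4.53% of all measured loci, and none higher, against 6.34%. Of the 25, 19 were below 0, against 40.6%, but 6 met the minimum in WT alone and 1 in the mutant alone. Of the 18 that met it in both libraries, 13 were below 0, against 41.5% of such loci, and 2 were called lower, against 3.68%.

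**Figure D5:**
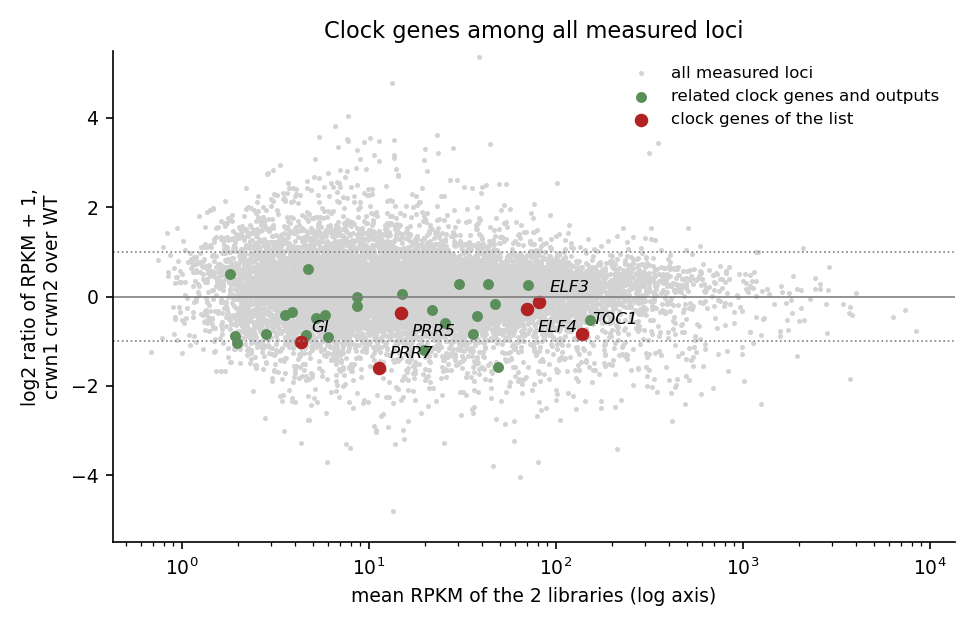
Log2 ratio of RPKM + 1, crwn1 crwn2 over WT (y axis), against the mean RPKM of the 2 libraries (log axis), for 14393 measured loci (grey), 25 related genes (green) and the 6 measured clock genes (red, named); dotted lines mark 2-fold. The 6 clock genes lie between -1.60 and -0.12, among many grey points at the same level.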

How the data were processed

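Each deposited table covers 1 library and gives, per the file headers, the whole-number count of uniquely mapped reads for every transcript model listed. RPKM was computed by the authors and equals count over model length and header total, and the deposited coverage is the percent of the model covered. TAIR10 is the build named in the submitters' processing notes; the aligner, counting rule and strand were not given in the sources used here.

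Reads and RPKM were summed per locus. Log2 ratios used RPKM + 1. Intervals of read ratios were exact conditional (Clopper-Pearson) 95% intervals, and those of ratios between genes were exact conditional odds-ratio intervals (SciPy 1.17.1). PCR copies are not independent molecules. The calling rule was applied to all loci and checked on simulated counts. Alternatives used TMM factors from edgeR 4.0.16.

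Of 21808 loci, 21651 matched RefSeq. Of 24005 nuclear models, 14136 shared an exact end with a RefSeq TAIR10.1 transcript of their locus and 23997 overlapped that locus, so both were read on the same coordinates. Motifs were searched in 27444 upstream windows with Biopython 1.88.

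Members and lists were chosen with earlier results of these data known. All 10 members and CRWN1 and CRWN2 were named, as were called genes and up to 4 measured genes with the largest absolute ratio from each of 5 related lists, and the called marker with the largest ratio. No gene was named for a similar pattern, since 2 libraries define none.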

Additional observations from a re-analysis of the deposited data

How the results depend on the processing

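The 6 measured log2 ratios were computed again with a pseudocount of 0.1, TMM scaling, the most-read model per locus, and centring. Centring used the median of all measured loci and was chosen after seeing the data. The ratios stayed below 0, within their counting intervals and on the same side of the calling rule (24 values, 0 changed calls). Each of the 6 has 1 listed model, so the most-read model repeats the main value. The other settings only lower these ratios. Staying below 0 was thus fixed in advance and is no check of the sign, and calls of lower could only be gained. Under TMM scaling the mutant-over-WT log2 shift was -0.14 before the added 1, with TOC1 -0.98 and GI -1.12, and turned the split of all calls from 912 higher and 652 lower to 691 and 826. Centring gave 690 and 813. At 1.5-fold, TOC1 became the third member called lower, where 8.3% of loci were called lower. With no floor, 4 rather than 3 related genes were called lower, the added one being PIF4 (6 and 0 reads), where 3.13% of loci were. The alternatives of the dawn over evening ratio could not be computed, because no dawn gene was listed. Low read counts limit LUX, GI and most REVEILLE, LNK and output genes, and 1 library per genotype limits all values. Models of loci with several RefSeq transcripts were thinly covered at the same depth. The parts of depth, transcript number and expression in these low counts were not tested.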
